A study of Homo sapiens with 3 samples.

Results

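The genes described here are 10 genes of the junctions that hold endothelial cells together: CDH5, PCDH12, CTNNA1, CTNND1, F11R, JAM2, JAM3, ESAM, CLDN5 and TJP1. They were taken by symbol, with no filter on their values, from the 18345 genes in each of the 3 deposited tables, and all 10 were found. The list itself was chosen with earlier results of these data known. The RNA-seq libraries were made from the established human line H1 of embryonic stem cells after stepwise blood differentiation, first with activin A (40 ng/ml) and BMP4 (50 ng/ml) for 2 days and then with VEGF (40 ng/ml) and bFGF (50 ng/ml) for 3 days. All samples carry day 4 in their labels, although these stages last longer. The collected cells, which the labels name HEPs, carried CD31 and CD34 on their surface and were divided by surface CD105 into negative, low and high fractions, here CD105neg, CD105low and CD105high. The sorted protein CD105, endoglin, works beside receptors for BMP and TGF-beta ligands. The 3 fractions share the cell line and the whole culture, and nothing but the CD105 gate is given as differing between them.

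Each fraction had 1 library, so no difference below has a replicate check and no p-value is given. Where 3 values are given in a row, they are for CD105neg, CD105low and CD105high in that order. Values are treated as FPKM, which are scaled by transcript length, so levels of different genes can be compared. A gene was measured if it reached 1 FPKM in at least 1 library, which 11343 genes did. Fold changes are on the log2(FPKM + 1) scale, which understates the change of low genes, and genes were called higher or lower from a difference of 1.5-fold on that scale. The gate genes were present in all libraries, with ENG (CD105) at 2.12, 8.56 and 13.8 FPKM in CD105neg, CD105low and CD105high. PECAM1 (CD31) stood at 29.9, 41.9 and 50.1 FPKM and CD34 at 21.0, 39.2 and 43.2 FPKM. The libraries summed to between 265618 and 289229 FPKM. If the values are FPKM, the spacing of the lowest ones puts the depth of CD105low at 1.11 and of CD105high at 1.04 times that of CD105neg.

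Endothelial cells are joined by adherens and tight junctions that lie mixed along their borders. In adherens junctions VE-cadherin (CDH5) binds its like on the next cell, and its tail binds p120-catenin (CTNND1), which holds it at the surface, and beta-catenin, which links to actin through alpha-catenin (CTNNA1). Tight junctions are strands of claudins, in many endothelia chiefly claudin-5 (CLDN5), with the immunoglobulin-like proteins JAM-A (F11R), JAM-B (JAM2), JAM-C (JAM3) and ESAM, joined by scaffolds such as ZO-1 (TJP1). PCDH12, also called VE-cadherin-2, is a protocadherin of endothelium and trophoblast that does not bind catenins.

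The largest difference between libraries lay at PCDH12, so its start region is shown first, with those of 2 members that differed little. Of these 2, which have 4 windows each in the table, the first listed window that holds a transcript start of GENCODE release 29 is shown. In both genes it was also the window with the most matches. Each of these 2 runs stops before the first base in an annotated exon of the gene, after 243 bases for CTNNA1 and 215 for TJP1. The RefSeq promoter table (GRCh38.p14) held 9 promoters of 3 members, namely PCDH12, CTNNA1 and TJP1. The motif searched was GGAA, the core that ETS-family factors bind, on either strand (TTCC on the strand shown), in the 250 bases before each start. It is in capitals in the runs below, which are 5′ to 3′ on the strand of the gene.

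PCDH12, 30 bases with the most matches, chr5:141958228-141958257, minus strand: cttTTCCtgtaggtggggtTTCCataGGAA

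CTNNA1, chr5:138753175-138753417, plus strand: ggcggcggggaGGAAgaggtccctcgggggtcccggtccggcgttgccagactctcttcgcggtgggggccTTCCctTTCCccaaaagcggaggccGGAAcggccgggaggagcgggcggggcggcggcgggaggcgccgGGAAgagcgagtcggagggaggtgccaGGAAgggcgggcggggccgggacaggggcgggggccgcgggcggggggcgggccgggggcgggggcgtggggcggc

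TJP1, chr15:29822504-29822718, minus strand: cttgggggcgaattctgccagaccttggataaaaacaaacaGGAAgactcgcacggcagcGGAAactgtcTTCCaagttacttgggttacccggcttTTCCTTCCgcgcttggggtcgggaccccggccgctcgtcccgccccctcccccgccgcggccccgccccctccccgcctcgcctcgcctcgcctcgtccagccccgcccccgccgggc

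The PCDH12 window held 7 GGAA matches in 250 bases, more than 95.9% of the 35114 promoters in the table, whose median was 3 and of which 92.7% held at least 1. The 4 windows of CTNNA1 held 6, 4, 5 and 2 matches and those of TJP1 held 1, 5, 1 and 2. The windows shown for CTNNA1 (6) and TJP1 (5) were also rich in matches, with more than 90.9% and 81.4% of the promoters. PCDH12 had 56.4% G and C and 5 CpG pairs, beside medians of 58.0% and 11 in the table. The windows of CTNNA1 spanned 40.8% to 80.4% G and C and those of TJP1 34.8% to 70.4%, so PCDH12 lay within both ranges. All 250 bases of the PCDH12 window lie in exons that GENCODE release 29 annotates for this gene, so the annotations differ on where it starts, and CTNNA1 and TJP1 have other starts in the table. A match is a run of letters and was not tested as a binding site.

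Of the 10 members, 4 were at least 1.5-fold higher in CD105high than in CD105neg (CDH5, ESAM, JAM3 and PCDH12) and none was lower. Among all 11343 measured genes, 5.65% were higher and 6.88% lower by the same rule. Because the members were chosen with earlier results of these data known, such shares describe them and are no test. The median log2 fold change of the 9 measured members was 0.37, beside -0.09 for all measured genes. In CD105low against CD105neg, CDH5 and PCDH12 were higher and F11R was lower, where 4.13% of measured genes were higher and 2.18% lower (medians 0.42 and 0.02). In CD105high against CD105low, F11R and PCDH12 were higher and none was lower, where 1.18% were higher and 2.19% lower (medians 0.20 and -0.10). These comparisons share libraries and are not independent of each other. Values rose from CD105neg through CD105low to CD105high for 5 members, CDH5, ESAM, JAM3, TJP1 and PCDH12, and fell in that order for none. Of all measured genes 17.6% rose and 36.4% fell in that order. After centring each library on the median of all measured genes, 28.6% rose, and still 5 members. JAM2 was not measured by the rule, and CLDN5 was measured through CD105low and CD105high only.

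**Figure D1:**
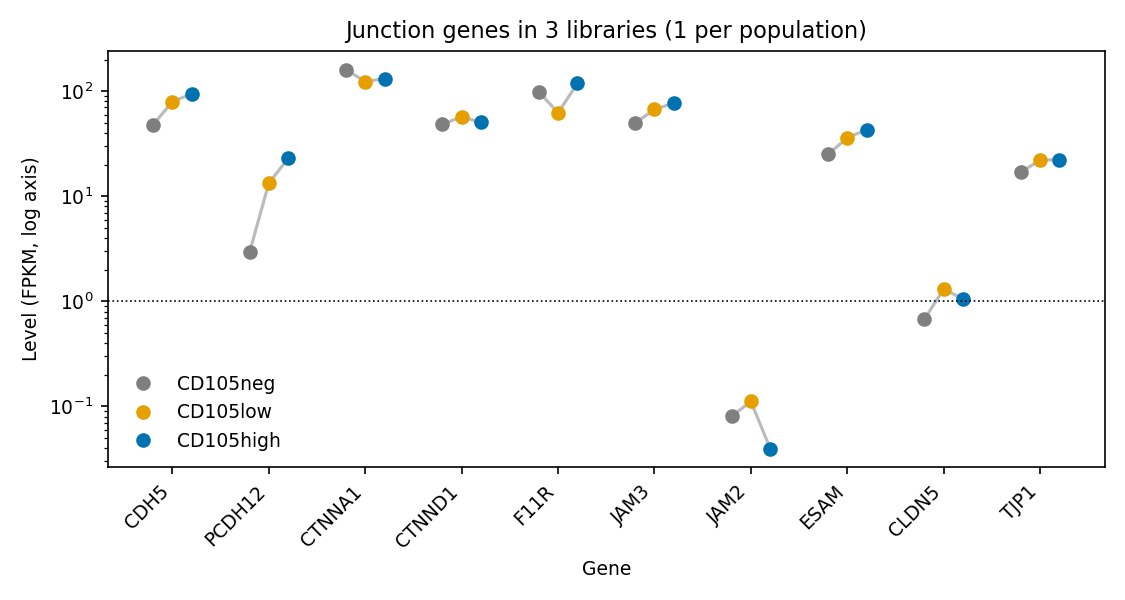
Level of each member (FPKM, log axis) in the CD105neg, CD105low and CD105high libraries, 1 point per library, with lines joining the points of a gene and a dotted line at 1 FPKM. CDH5, PCDH12, JAM3, ESAM and TJP1 rise from left to right, F11R dips to 62.2 FPKM in CD105low, and JAM2 lies below 1 FPKM throughout.

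**Figure D2:**
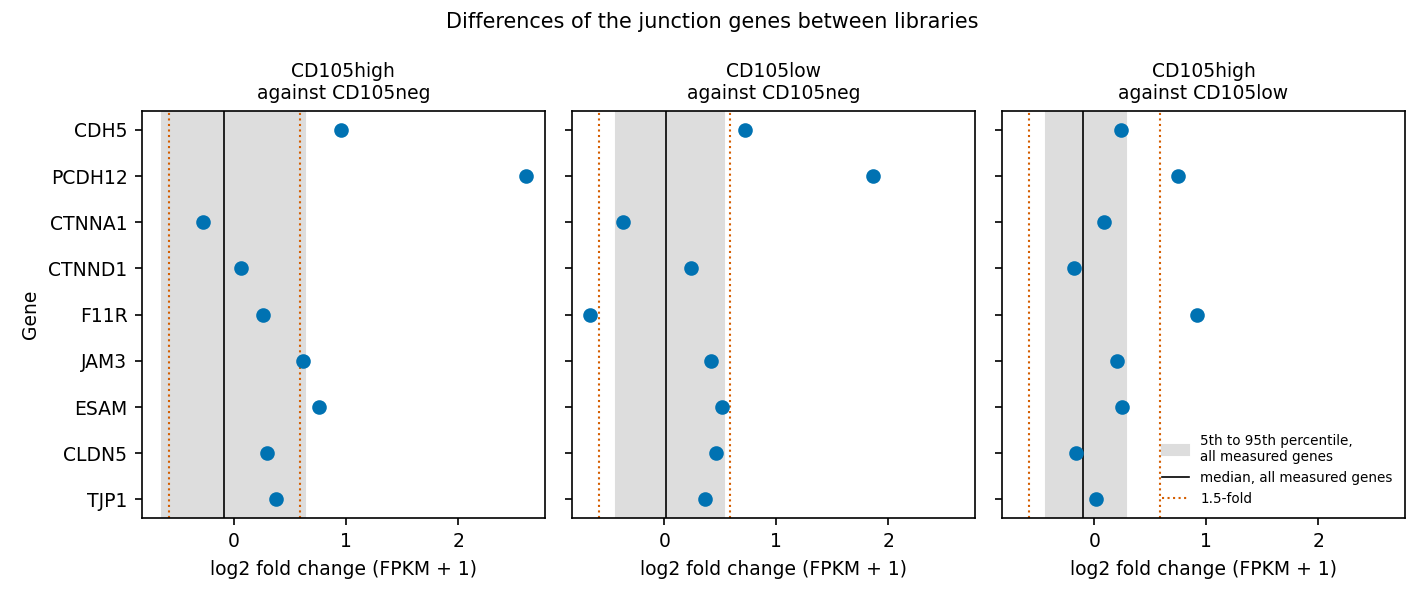
Log2 fold change of the 9 measured members on the FPKM + 1 scale in the 3 comparisons, with the 5th to 95th percentile of all measured genes in grey, their median as a black line and 1.5-fold as dotted lines. PCDH12 lies outside the grey range in all 3 panels, and F11R lies to the left of it for CD105low against CD105neg and to the right for CD105high against CD105low.

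CDH5 (ENSG00000179776.17) had its lowest level in CD105neg (48.0 FPKM), a higher one in CD105low (79.6 FPKM) and its highest in CD105high (94.1 FPKM). The larger step lay between the negative and the low fraction, with a log2 fold change of 0.72 there and 0.24 between the low and the high fraction. Over the full range it was 0.96, and 97.9% of measured genes had a lower one. The gene was already among the more abundant in CD105neg, at rank 1017 of the measured genes, and reached rank 429 in CD105high. None of the sampled 50-base pieces of CDH5 transcripts was found in another gene.

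The rise of VE-cadherin went with a fall of another cadherin. Of 9 classical cadherin genes looked at together, CDH5 held 23.9% of the summed level in CD105neg, 40.7% in CD105low and 50.9% in CD105high. CDH11, the cadherin of mesenchyme and osteoblasts, stood at 118, 78.6 and 53.0 FPKM, which is 58.7%, 40.1% and 28.7% of the sum. The ratio of CDH5 to CDH11 was thus 0.41, 1.01 and 1.77, and the leading cadherin transcript changed from CDH11 in CD105neg to CDH5 in CD105high, with both nearly level in CD105low. N-cadherin (CDH2), the other main cadherin of endothelium, stood at 20.1, 24.7 and 26.4 FPKM and was less than 1.5-fold apart. The sum of the 9 genes itself moved less, at 200.4, 196 and 185 FPKM. The epithelial cadherins CDH1 and CDH3 were low, at 1.80 and 4.60 FPKM in CD105neg and 0.82 and 2.85 FPKM in CD105high. CDH3 shares 11.4% of its sampled sequence with other genes. CDH13, a cadherin without a cytoplasmic tail that is found on vessels, stood at 8.63, 20.9 and 25.4 FPKM (log2 fold change 1.45 for CD105high against CD105neg).

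**Figure D3:**
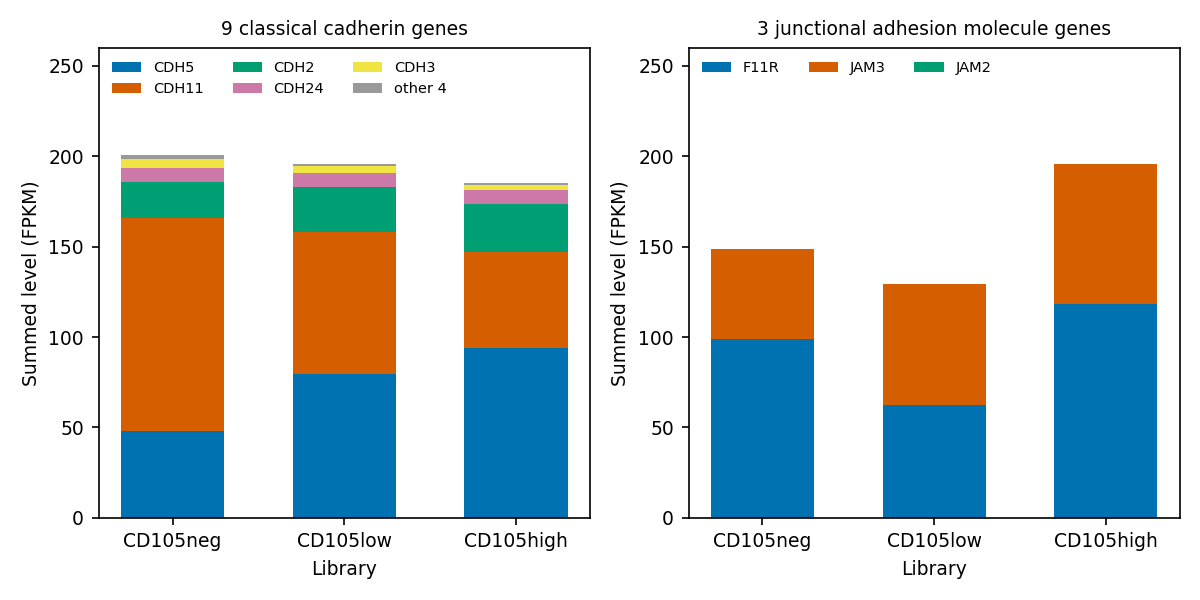
Summed level (FPKM) of 9 classical cadherin genes and of the 3 junctional adhesion molecule genes in each library, with each gene's part stacked from 0. CDH5 grows from 48.0 to 94.1 FPKM as CDH11 shrinks from 118 to 53.0 FPKM, and the sum of the adhesion molecules is lowest in CD105low, at 129 FPKM.

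PCDH12 (ENSG00000113555.5) was low in CD105neg (2.93 FPKM), intermediate in CD105low (13.3 FPKM) and highest in CD105high (23.0 FPKM). It was the member with the widest range, 7.83-fold from the lowest to the highest library as deposited. Its log2 fold change was 2.61 over the full range, above 99.9% of measured genes, with 1.87 from the negative to the low fraction and 0.74 from the low to the high one. ENG itself, on which the cells were sorted, had log2 fold changes of 2.25, 1.62 and 0.63 in the same comparisons. Per VE-cadherin transcript, PCDH12 was also higher, with ratios of PCDH12 to CDH5 of 0.061, 0.17 and 0.24. PCDH1, another protocadherin, stood at 2.82, 5.67 and 9.33 FPKM, and the abundant PCDH17 at 22.7, 33.7 and 32.6 FPKM. An exon of RNF14 overlaps 1.58% of the exon bases of PCDH12 on the other strand, and RNF14 stood at 12.3, 13.5 and 13.0 FPKM.

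CTNNA1, CTNND1 and CTNNB1 did not follow the order of VE-cadherin. CTNNA1 (ENSG00000044115.20) was the most abundant member in every library, at 160.2, 124 and 132 FPKM. It was highest in CD105neg, where CDH5 was lowest, with log2 fold changes of -0.28 and -0.37 against CD105neg, short of the 1.5-fold rule. It made up at least 98.4% of the summed level of CTNNA1, CTNNA2 and CTNNA3 in each library. CTNNA2, the form of neurons, was at or below 2.29 FPKM and CTNNA3, the form of heart, at or below 0.45 FPKM. The relative CTNNAL1, which is not in that sum, stood at 40.2, 35.7 and 32.3 FPKM. CTNND1 (ENSG00000198561.13) stood at 48.2, 57.3 and 50.4 FPKM, the narrowest range of any member (1.19-fold), and was highest in CD105low. Its relatives ARVCF and PKP4, which also bind cadherin tails, stood at 9.84, 9.84 and 7.81 FPKM and at 20.6, 24.0 and 28.8 FPKM. Beta-catenin (CTNNB1) stood at 273, 275 and 250.2 FPKM, and plakoglobin (JUP), which can take its place, at 24.5, 26.6 and 30.5 FPKM. JUP and PKP4 thus rose in the order of CDH5, by less than 1.5-fold. The ratio of CDH5 to CTNND1 was 0.995, 1.39 and 1.87, and that of CDH5 to CTNNA1 was 0.30, 0.64 and 0.71.

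Among the junctional adhesion molecules the 3 genes took 3 patterns. JAM3 (ENSG00000166086.12) stood at 49.9, 67.0 and 77.1 FPKM and rose in the order of the sort (log2 fold change 0.62 for CD105high against CD105neg). It lay just inside the 1.5-fold rule, and with a pseudocount of 5 it was just outside, at 0.58. JAM3 shares 7.92% of its sampled sequence with NCAPD3, which overlaps it on the other strand and stood at 17.4, 18.5 and 16.1 FPKM.

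F11R (ENSG00000158769.17), which encodes JAM-A of endothelium, epithelium and platelets, stood at 98.9, 62.2 and 119 FPKM. It was low in the middle fraction and high at both ends, with a log2 fold change of -0.66 from the negative to the low fraction and 0.92 from the low to the high one. CD105low lay at least 1.5-fold below both other libraries for 0.256% of measured genes (29 of 11343), and F11R was the single member among them. A value of 1 library sets this pattern, and without CD105low the remaining difference of F11R is 0.26. Of its sampled sequence 47.6% is shared, nearly all with the read-through gene AL591806.3, which stood at 0.56, 0.82 and 0.43 FPKM. The part of shared reads in the dip was not tested. NECTIN2, which encodes an adhesion molecule of adherens junctions, also had its lowest value in CD105low, at 101, 82.0 and 104 FPKM, but was not 1.5-fold apart.

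JAM2 (ENSG00000154721.14) was close to absent, at 0.081, 0.11 and 0.040 FPKM. In steps of the lowest values, each worth 1 fragment if the values are FPKM, these levels correspond to 26.8, 41.0 and 13.7 steps when all reads are placed on its longest transcript, and to fewer on a shorter one. At these levels no fold is given for it. On the other strand ATP5PF, listed in the tables as ATP5J at 39.3, 33.1 and 27.3 FPKM, overlaps 58 of its exon bases. Because JAM2 held under 0.1% of the sum of the 3 genes, the sum was made of F11R and JAM3, with F11R ahead in CD105neg (66.4%) and CD105high (60.6%) and JAM3 ahead in CD105low (51.8%).

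ESAM (ENSG00000149564.11), an adhesion molecule of endothelium and platelets, stood at 25.0, 36.1 and 42.9 FPKM. It rose in the order of the sort with a log2 fold change of 0.76 over the full range, of which 0.51 lay between CD105neg and CD105low. Its ratio to CDH5 was 0.52, 0.45 and 0.46, and that of JAM3 to CDH5 was 1.04, 0.84 and 0.82. Both genes thus rose somewhat less than VE-cadherin, while PCDH12 rose more.

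The claudin of endothelium was barely expressed. CLDN5 (ENSG00000184113.9) stood at 0.68, 1.31 and 1.05 FPKM, or 1.25%, 2.49% and 2.31% of the summed level of 14 claudin genes. The deposited values of CD105low and CD105neg were 1.93-fold apart, and on the FPKM + 1 scale the difference was 0.46, short of the rule. With a pseudocount of 0.1 it was 0.86. In the steps used for JAM2, CLDN5 stood at 132, 283 and 213 on its longest transcript, and at fewer on a shorter one. VE-cadherin transcripts outnumbered it 70.9, 60.9 and 89.2 times. The leading claudins were CLDN7 and CLDN12, each between 12.2 and 15.01 FPKM, and CLDN10, which fell through the sort at 17.3, 11.9 and 7.89 FPKM (log2 fold change -1.04 for CD105high against CD105neg). They share 13.7%, 16.3% and 35.8% of their sampled sequence with other genes, so their values are uncertain. CLDN11, CLDN15, CLDN6, CLDN23 and CLDN4 reached at most 3.96 FPKM, CLDN1, CLDN2, CLDN3 and CLDN18 at most 0.20 FPKM, and CLDN14 was listed at 0 in all 3. Occludin (OCLN), the other strand protein of tight junctions, stood at 1.90, 1.38 and 1.25 FPKM. OCLN shares 16.9% and CLDN11 17.9% of sampled sequence with other genes, so their values are uncertain too.

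**Figure D4:**
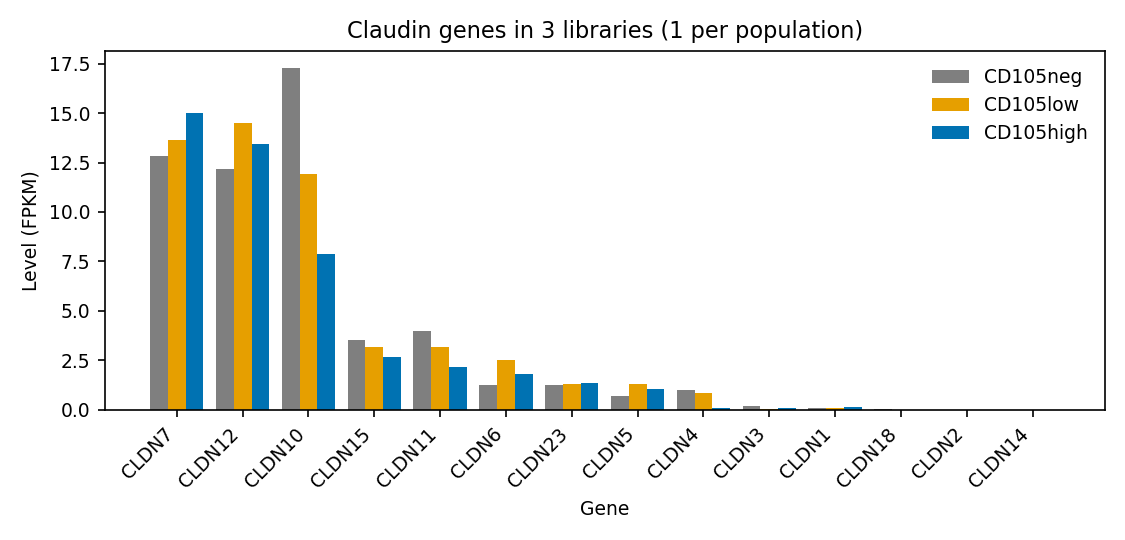
Level (FPKM) of 14 claudin genes in the 3 libraries, ordered by mean level, bars from 0. CLDN5 stands at 0.68 to 1.31 FPKM, far below CLDN7, CLDN12 and CLDN10, and CLDN10 falls from 17.3 to 7.89 FPKM.

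TJP1 (ENSG00000104067.16) stood at 17.0, 22.1 and 22.3 FPKM. It was lowest in CD105neg and nearly level in the other fractions, with log2 fold changes of 0.36 and 0.37 against CD105neg, short of the rule. Its relative TJP3, which encodes ZO-3, was at or below 0.98 FPKM.

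Ordered by level, CTNNA1 led in all libraries and CLDN5 and JAM2 came last. In CD105neg, JAM3, CTNND1 and CDH5 lay within 49.9 to 48.0 FPKM of each other, behind F11R. In CD105high, CDH5 came next after CTNNA1 and F11R, and PCDH12 (23.0 FPKM) had reached the level of TJP1 (22.3 FPKM). With 1 library per fraction, it cannot be said which neighbours in these orders differ beyond their spread.

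The 12 endothelial markers used as a check, such as KDR, TIE1 and VWF, were mostly higher with more CD105. By the same rule 11 of 12 were higher in CD105high than in CD105neg and none was lower (median log2 fold change 1.06, lowest -0.08), and their summed level was 1354, 1890 and 1985 FPKM. As a share of that sum, CDH5 stood at 3.54%, 4.21% and 4.74%, PCDH12 at 0.22%, 0.70% and 1.16%, and ESAM at 1.85%, 1.91% and 2.16%. JAM3 held 3.69%, 3.55% and 3.88%, TJP1 1.25%, 1.17% and 1.12%, and CTNNA1 11.8%, 6.54% and 6.63%. PCDH12 thus rose more than the markers did as a sum, JAM3 about as much, and CTNNA1 did not follow them. The abundant marker KDR (430.5 and 713 FPKM in CD105neg and CD105high) weighs heavily in this sum. By log2 fold change over the full range, PCDH12 (2.61) rose more than the median marker (1.06) but less than the highest marker (2.70). CDH5 (0.96), ESAM (0.76) and JAM3 (0.62) rose less than the median marker. In bulk RNA fewer cells of a type and less RNA per cell cannot be told apart. Of markers of other cell types, 9 of 10 measured erythroid and megakaryocyte genes were lower in CD105high than in CD105neg, with sums over the list of 77.8, 35.9 and 22.1 FPKM. For mesenchymal and mural genes it was 5 of 8 (270.4, 261 and 209.7 FPKM), for leukocyte genes 2 of 4 (64.3, 54.4 and 42.8 FPKM), and for epithelial and pluripotent genes 1 of 9 (111, 102 and 89.8 FPKM). PTPRC, CD48, DCN and PPBP were below 0.1 FPKM in all libraries, and no marker was at 0 in all 3. The part of these cell types in the members' differences was not tested.

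Across a wider list of 114 other junction genes, of which 113 were in the tables and 91 measured, differences went both ways. In CD105high against CD105neg 10 of the 91 were higher and 11 (12.1%) lower, beside 5.65% and 6.88% of all measured genes, and the median log2 fold change was 0.02. In CD105low against CD105neg 7 (7.69%) were higher and none lower, beside 4.13% and 2.18%. In CD105high against CD105low 1 (1.1%) was higher (PCDH1) and 3 (3.3%) lower (PLEKHA7, RAP1B and PDCD10), close to the 1.18% and 2.19% of all measured genes. Those higher in CD105high than in CD105neg were CDH13, PCDH1, the scaffold gene AMOT, PECAM1, VSIG1 and 5 regulators of VE-cadherin junctions. PECAM1 and, of the regulators, KDR and TEK are also among the endothelial markers above, so the 2 lists are not separate for them. The regulators were ARHGAP29 at 30.1 and 58.3 FPKM in CD105neg and CD105high, the kinase gene YES1 at 91.8 and 160.1 FPKM, KDR (VEGF receptor 2) at 430.5 and 713 FPKM, TEK, and PTPRB, the phosphatase that binds VE-cadherin, at 10.8 and 17.8 FPKM.

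The 11 lower genes were CDH11, CDH1, CLDN10, CLDN11, PLEKHA7, PKP2, CGN, PARD3B, IGSF11, PTPRJ and SRC. PLEKHA7, which links p120-catenin to microtubules, stood at 6.18 FPKM in CD105neg and 2.52 FPKM in CD105high. CGN encodes the tight junction protein cingulin (3.55 and 1.99 FPKM), and PKP2 a desmosomal plakophilin (5.17 and 3.09 FPKM). SRC stood at 17.9 and 10.6 FPKM, the opposite direction to YES1 of the same kinase family. By sub-list, with few genes in each beside the shares of all measured genes above, no catenin or linker gene was higher and 2 of 13 were lower, and none of the 4 measured nectins was 1.5-fold apart between CD105high and CD105neg. Of 18 tight junction scaffold and polarity genes 1 was higher and 2 lower. RAP1B, a small GTPase that acts at VE-cadherin junctions, was the single gene of the list that was at least 1.5-fold higher in CD105low than in both others, at 31.4, 101 and 28.6 FPKM, a pattern that 0.37% of measured genes had. Its value is uncertain, since 18.6% of its sampled sequence is shared. TEK, PTPRB, SRC, RAP1B and PDCD10 were named after their values were seen.

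**Figure D5:**
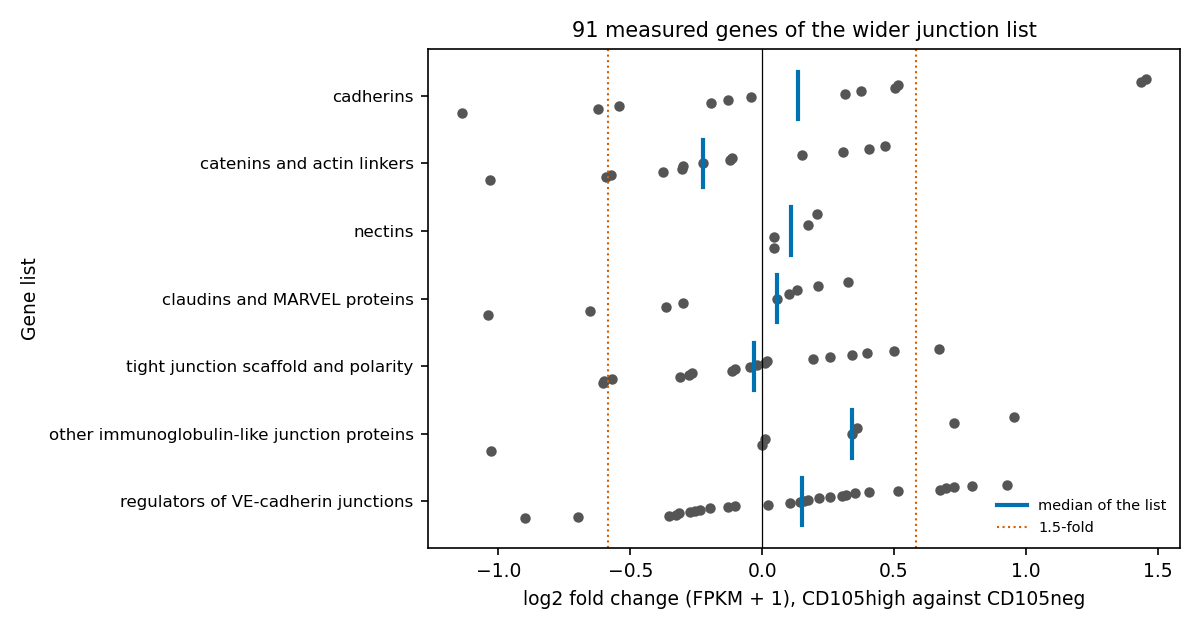
Log2 fold change (FPKM + 1) of CD105high against CD105neg for the 91 measured genes of the wider junction list, 1 point per gene, grouped by sub-list, with the median of each in blue and 1.5-fold as dotted lines. Points lie on both sides of 0 in every sub-list except the nectins, and CDH13 and PCDH1 lie farthest to the right.

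The genes whose profile over the 3 libraries was most like that of CDH5, by Euclidean distance of centred log2(FPKM + 1) values among 5900 genes at or above 10 FPKM, were FRMD4A, ITGA9, MFNG, QPCT and VCAN. ITGA9, an integrin chain, stood at 39.8, 65.0 and 77.6 FPKM, and MFNG, which encodes a glycosyltransferase that acts on Notch, at 11.1, 19.2 and 23.0 FPKM. Their distances, 0.015 to 0.026, rest on 3 values per gene. FRMD4A shares 18.0% of its sampled sequence with other genes.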

How the data were processed

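Per the submitters' processing notes, the authors used BWA, Bowtie, RSEM and the build hg19. Versions, roles, filters and annotation were not given in the sources used here. The deposited tables give 1 value per gene and library. Neither labels nor headers name the unit, and the deposited values were treated as FPKM, which cannot be told from TPM here. The header of the CD105neg value column reads as CD105 positive, and the sample's labels were followed. Per the labels' protocols, library preparation started from 2 ug of RNA and used a kit that does not mark strand, so reads of genes overlapping on opposite strands cannot be separated.

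Tables were joined by gene identifier (Python 3.11.15, pandas 2.3.3, numpy 2.4.6). Log2 fold changes used a pseudocount of 1. No test was possible with 1 library per group. The fold and order rules were tested on simulated data, with set changes and small noise in abundant genes. That checks the calculation and not the spread of these libraries. Sequence sharing was the percentage of 50-base pieces, taken every 40 bases of GENCODE release 29 transcripts (18317 genes matched), found on either strand in transcripts of another gene. Members and lists were chosen with earlier results of these data known. Named were all members, their relatives, the gate genes, in each sub-list the 4 measured genes with the largest differences and the 2 most abundant, and the 5 genes nearest to CDH5. MPP5 was matched to PALS1 by gene identifier, and CD99 is not analysed here. Alternatives were other pseudocounts, filters, a 2-fold rule, centring and leaving out genes with shared sequence.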

Additional observations from a re-analysis of the deposited data

How the results depend on the processing

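Counts and medians were recomputed under each alternative. Of 106 such values, 78 stayed within 1.5 times the count, or within 0.1 of the median, and 28 did not. No median changed sign. Most of the values are counts, which cannot change sign. The cause of shifts was not tested, except where fewer genes or a higher threshold make a count smaller by construction. The median of the members in CD105high against CD105neg was 0.57 with a pseudocount of 0.1, 0.50 at or above 10 FPKM (8 members) and 0.50 without genes sharing at least 10% of their sequence (8 members, F11R left out). In CD105low against CD105neg it was 0.30 with a pseudocount of 5. With a 2-fold rule, 1 member (PCDH12) was higher against CD105neg in CD105high and 1 in CD105low, with 0 lower, and 0 were higher in CD105high against CD105low. Without genes that share sequence, 0 members were lower in CD105low against CD105neg and 1 was higher in CD105high against CD105low.

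For the wider list in CD105high against CD105neg, 2 genes were higher and 4 lower by the 2-fold rule, and 2 were lower with a pseudocount of 5, 6 after centring and 3 at or above 10 FPKM. In CD105low against CD105neg, 3 were lower with a pseudocount of 0.1 and 1 after centring. There, 3 were higher with a pseudocount of 5, 4 at or above 10 FPKM and 2 by the 2-fold rule. In CD105high against CD105low, 2 were higher with a pseudocount of 0.1 and after centring, and 0 with a pseudocount of 5, at or above 10 FPKM and by the 2-fold rule. There, 6 were lower with a pseudocount of 0.1, 1 with a pseudocount of 5 and 1 by the 2-fold rule. Of 93 fold changes of single members, 90 kept their side of the 1.5-fold rule. The others were JAM3 (0.58, CD105high against CD105neg, pseudocount of 5) and CLDN5 (0.86, CD105low against CD105neg, pseudocount of 0.1), and JAM2 in CD105high against CD105low with a pseudocount of 0.1, where its levels are too low for a fold. Summing F11R with its read-through gene, chosen after seeing the data, gave 99.5, 63.1 and 119 FPKM, which the low level of the latter fixes by construction. No paired analysis was possible because each group has 1 library. Fragment totals were not given in the sources used here, so values of genes near or below 1 FPKM are the least certain. Among the members these are JAM2 and, with more steps than JAM2, CLDN5.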
